A study of Mus musculus with 24 samples.

Results

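Short dexamethasone exposure was examined in calf muscle of mice that lack the ubiquitin ligase MuRF1. The comparison takes the 3 arrays of knockout muscle after 3 days of dexamethasone and the 3 arrays of untreated knockout muscle of the same arm, 6 of the 24 arrays in the series, across all 16262 features that passed a filter on detection. These arrays were chosen by their labels alone. The series measured total RNA of the triceps surae, the muscle group of the calf, from C57/Bl6 mice aged 4 months on Illumina beadchips. Treated animals drank water with dexamethasone, a synthetic glucocorticoid, at 3 mg/kg, while untreated littermates were housed alongside. Beside the 3-day knockout pair, the groups compared are wild-type muscle of the 3-day arm, untreated and treated, with 3 arrays in each. Knockout muscle of the 14-day arm, untreated and treated, is compared as well, also with 3 arrays in each. Arrays of 14-day wild-type muscle, untreated and treated, are in no comparison but entered the detection filter, normalization, principal components and shared estimate of spread. Every knockout group carries the same MuRF1 deletion, with or without the drug. The labels give neither the allele nor the cells in which it is deleted, and they do not say whether the 3 samples of a group came from separate animals, so the p-values reflect only how these samples spread, and that spread may be technical.

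Glucocorticoids bind the glucocorticoid receptor, a transcription factor that moves to the nucleus and activates genes with a palindromic response element in their regulatory DNA. In skeletal muscle this hormone class is known for atrophy: protein synthesis falls, the ubiquitin-proteasome system and autophagy degrade myofibrillar and soluble protein, and the amino acids released are exported. MuRF1, encoded by Trim63, and atrogin-1, encoded by Fbxo32, are the ubiquitin ligases by which muscle atrophy is usually tracked, and mice without MuRF1 are known to lose less muscle mass under glucocorticoids.

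The 6 arrays looked like skeletal muscle. Of 18 skeletal muscle fibre markers 16 were measured, and Pvalb, the calcium buffer parvalbumin of fast fibres, had log2 signals of 15.25 to 15.56 on the 6 arrays. Signals are given throughout as log2 of the background-corrected and quantile-normalized intensity with an offset of 16, so a value near 4 is background, and 1 unit is a 2-fold difference. Dexamethasone replicate 3 of the 3-day knockout stood apart from all other arrays. It lay at 70.61 on the first principal component of the 24 arrays, which held 28.2% of the variance, against -31.96 to 23.77 for the other arrays. It had the lowest share of detected probes, 29% against 30.7% to 36.1% on the others, and its mean correlation with its own group was 0.953, against at least 0.968 elsewhere. On the second component, with 16.7% of the variance, it lay among the treated arrays, which spanned 10.44 to 22.79, while untreated arrays spanned -20.56 to -8.68. Results are therefore given with this array, and the list counts and named calls that change when it is left out are given both ways. Replicate numbers are those of the deposited non-normalized table, and the authors' second table numbers the arrays of 5 groups differently, both 3-day knockout groups included.

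**Figure D1:**
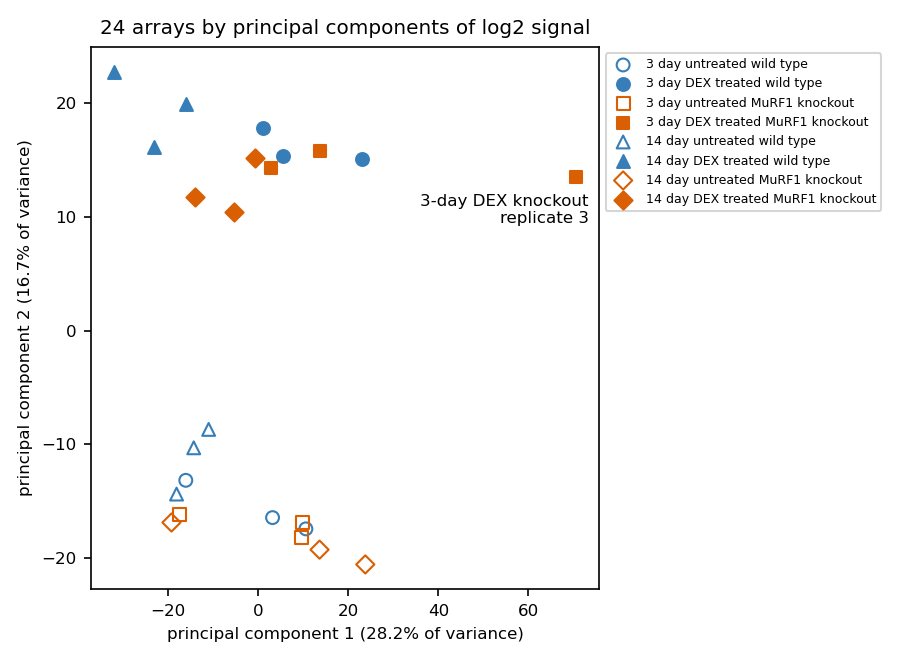
Each point is 1 of the 24 arrays, placed by its score on the first (horizontal, 28.2% of variance) and second (vertical, 16.7%) principal component of log2 signal, with circles and triangles for wild type, squares and diamonds for knockout, and filled symbols for dexamethasone. Treated arrays lie at 10.44 or above on the second component and untreated arrays at -8.68 or below, and dexamethasone replicate 3 of the 3-day knockout lies alone at 70.61 on the first.

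Trim63 itself checks the genotype. Its log2 signal was 4.51, 4.87 and 4.56 on the untreated knockout arrays and 4.79, 4.84 and 4.62 on the treated ones, with the probe detected on 1 of 3 arrays in each group. The groups overlapped, and the log2 fold change of 0.11 (SE 0.19, adjusted p = 0.803) is one between signals near background. In 3-day wild-type muscle the same probe read 8.45 to 8.65 untreated and 9.27 to 9.87 after dexamethasone. The sources used here do not say whether this probe lies inside the deleted stretch.

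The reference sequence upstream of Trim63 is shown because it holds letters of the 2 factors that glucocorticoid atrophy is best known for. RefSeq's window for the gene on GRCm38.p6 (chr4:134314870-134315119, plus strand, 250 bases up to the transcription start) contains, in capitals, a palindrome of the glucocorticoid response element type, GNACANNNTGTNC, that starts at -208, and TGTTTAC, a motif of FOXO factors, that starts at -194.
Trim63: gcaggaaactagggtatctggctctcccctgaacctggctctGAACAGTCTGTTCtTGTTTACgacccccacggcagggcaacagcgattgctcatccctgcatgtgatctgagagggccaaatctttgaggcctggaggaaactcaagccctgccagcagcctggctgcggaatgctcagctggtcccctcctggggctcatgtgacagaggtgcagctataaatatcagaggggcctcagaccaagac
Both motifs were searched on both strands. The palindrome occurs in 0.387% of 32851 RefSeq promoter windows of the same 250 bases and the FOXO motif in 3.17%. These are matches of letters, and the sequence is that of the reference genome, not of the knockout allele.

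Dexamethasone for 3 days changed 873 of the 16262 features in knockout muscle, 5.37% of those tested (limma across all 24 arrays, Benjamini-Hochberg adjusted p under 0.05). Of these, 466 were higher (2.87%) and 407 lower (2.5%), and 704 were named genes. A difference of 2-fold or more was reached by 94 of the higher and 149 of the lower features. In 854 of the 873 all 3 treated arrays lay on one side of all 3 untreated arrays, which was so for 19.2% of all features tested, 10.9% with treated arrays above and 8.32% with treated arrays below. Without dexamethasone replicate 3 the count was 527 (3.24%), with 245 higher (1.51%) and 282 lower (1.73%), and 468 of the 873 features, or 53.6%, were still called. The count was 493 without untreated replicate 3 and 1332 without dexamethasone replicate 1, so both of these arrays move it by more than 1.5 times too.

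**Figure D2:**
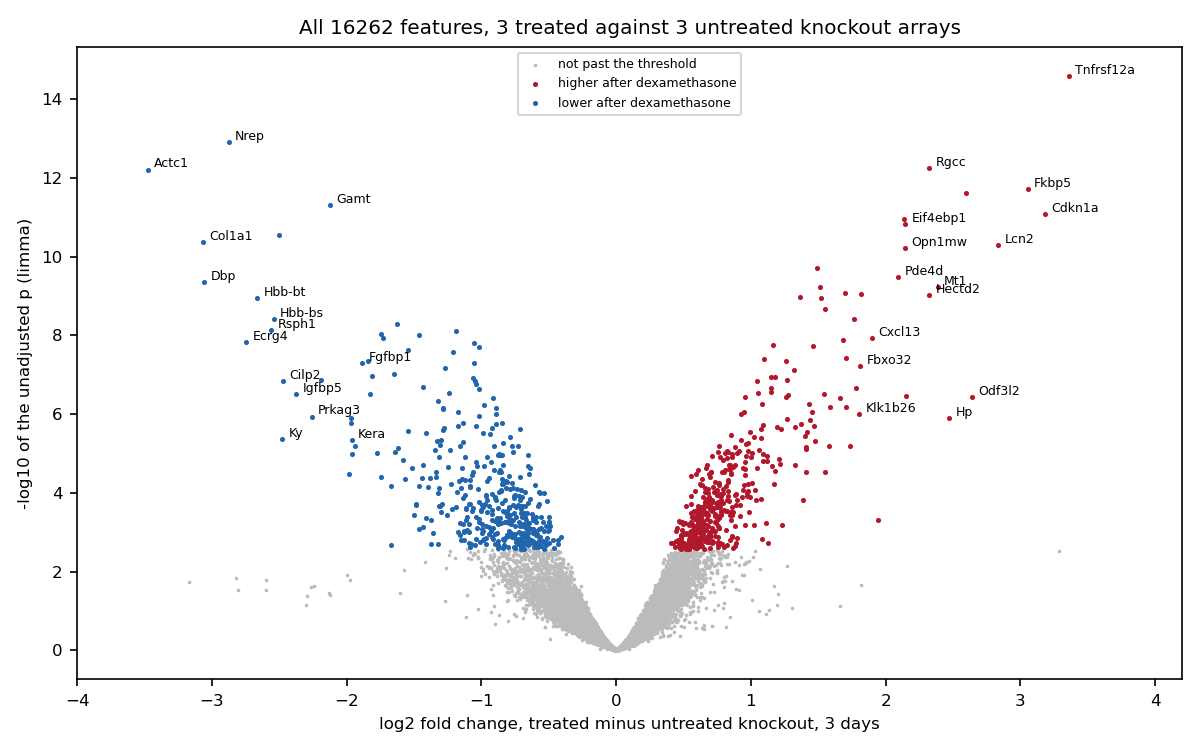
Each point is 1 of 16262 features, with its log2 fold change (treated minus untreated knockout, 3 days) on the horizontal axis and −log10 of its unadjusted limma p on the vertical axis. Red marks the 466 features that were higher and blue the 407 that were lower past the adjusted threshold, and the 30 labelled genes are the named genes with the largest changes in each direction whose arrays do not overlap.

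The largest rise was that of Tnfrsf12a, the receptor for the cytokine TWEAK, which is known to be induced in denervated and atrophying muscle. Its log2 signal was 7.48, 7.42 and 7.79 on the untreated arrays and 10.999, 10.870 and 10.896 on the treated ones, a 10.3-fold rise (log2 fold change 3.36, SE 0.18, adjusted p = 4.13e-11). The treated arrays lay close together and more than 3 units above every untreated array. Cdkn1a, which encodes p21, an inhibitor of cyclin-dependent kinases, went from 7.66, 7.47 and 7.29 to 10.23, 10.68 and 11.04, a 9.06-fold rise (SE of the log2 change 0.25, adjusted p = 1.66e-08). Rgcc, a regulator of cell cycle progression, rose from 9.19, 9.17 and 9.18 to 11.18, 11.44 and 11.88, or 5.01-fold (adjusted p = 2.49e-09). Its 3 untreated arrays were nearly equal, and every treated array lay well above them.

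Other genes with large rises came from several classes. Hp, haptoglobin, which binds free haemoglobin, rose 5.55-fold, from 6.72, 6.82 and 6.80 to 8.67, 9.39 and 9.70 (adjusted p = 0.000212). Pde4d, a phosphodiesterase that degrades cyclic AMP, rose from 6.10, 6.55 and 5.65 to 7.97, 8.17 and 8.44 (log2 fold change 2.10, SE 0.20). Odf3l2 rose from 4.48, 5.21 and 4.65 to 7.78, 8.22 and 6.26 (log2 fold change 2.64, adjusted p = 7.72e-05). Dexamethasone replicate 3 was the lowest treated array for Odf3l2, unlike for Hp and Pde4d, where it was the highest. Opn1mw, named for the cone opsin, was not detected on any untreated array and rose at least 3.21-fold. Klk1b26, a kallikrein of a family of near-identical genes whose transcripts a probe may not separate, rose 3.49-fold (adjusted p = 0.000175). Opn1mw and Odf3l2 were each read by 1 probe.

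**Figure D3:**
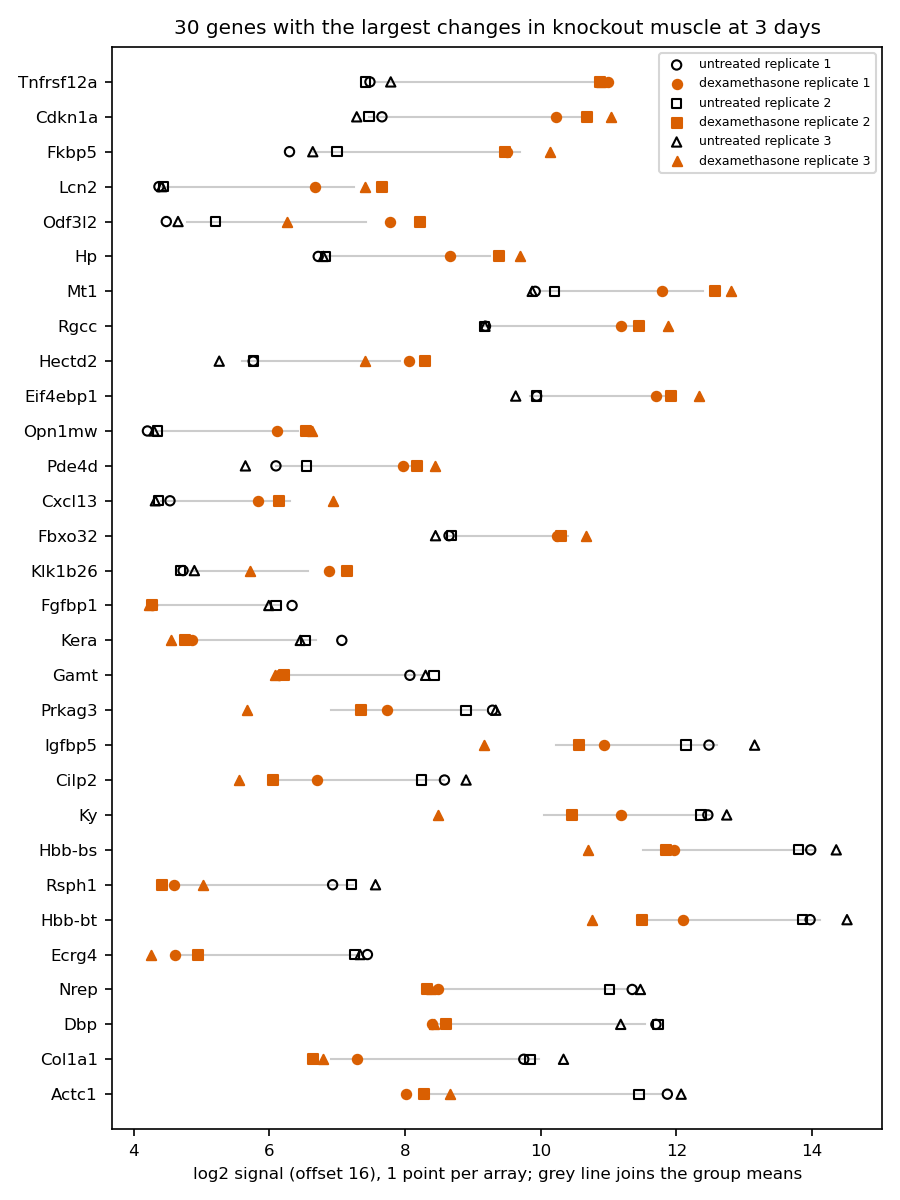
Each row is 1 of the 30 named genes with the largest changes, and each point the log2 signal of 1 array, open for untreated and orange for dexamethasone-treated knockout muscle at 3 days, with the replicate given by the symbol shape and a grey line joining the group means. Tnfrsf12a at the top runs from 7.42 to 10.999 and Actc1 at the bottom from 12.07 down to 8.02, and for Ky, Prkag3, Igfbp5 and Hbb-bs the triangle of dexamethasone replicate 3 lies well below the other treated arrays.

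Among genes known to respond to glucocorticoids, 33 of 35 listed were measured, 10 rose, 0 fell and 23 did not pass. Their median log2 fold change was 0.61, against 0.00 over all features, and without dexamethasone replicate 3 the count was again 10. Over all features 2.87% rose and 2.5% fell, and each list count here and below is to be read beside these shares. Fkbp5, a co-chaperone that restrains the glucocorticoid receptor and is induced by it, rose 8.32-fold, from 6.296, 6.998 and 6.639 to 9.50, 9.47 and 10.13 (SE of the log2 change 0.23, adjusted p = 6.27e-09). Lcn2, the siderophore-binding lipocalin, was at background on all untreated arrays (4.37, 4.44 and 4.41) and read 6.67, 7.65 and 7.41 after treatment, at least 5.66-fold higher (adjusted p = 6.5e-08). Pdk4, the kinase that shuts off pyruvate dehydrogenase, rose from 10.09, 10.99 and 11.11 to 12.13, 12.01 and 12.28 (log2 fold change 1.41, adjusted p = 0.00208). In each of these genes every treated array lay above every untreated array. Foxo1, the forkhead factor that activates atrophy genes, rose by 1.02 (log2, adjusted p = 0.0189) and did not pass without dexamethasone replicate 3.

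Several textbook targets did not pass, and these were picked for mention after their values were seen. Tsc22d3, the leucine zipper protein GILZ, had a log2 fold change of 0.45 (adjusted p = 0.35), as dexamethasone replicate 1 at 7.12 lay among the untreated arrays while replicates 2 and 3 read 7.93 and 7.96. Klf15, a Kruppel-like factor of amino acid breakdown, had 0.17 (adjusted p = 0.632), and Sgk1, a serum and glucocorticoid regulated kinase, had -0.22 (adjusted p = 0.647). Nr3c1, the receptor gene itself, had -0.34 (adjusted p = 0.214).

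Metallothioneins, small proteins that bind zinc and copper, are induced by both metals and glucocorticoids. Mt1 rose 5.23-fold, from 9.92, 10.21 and 9.87 to 11.78, 12.57 and 12.81 (adjusted p = 5.08e-07), and Mt2 rose 2.51-fold, from 6.15, 6.08 and 6.56 to 7.12, 7.52 and 8.12 (adjusted p = 0.000303). Neither gene's groups overlapped, and dexamethasone replicate 3 was the highest array in both. Serpina3n, an acute-phase protease inhibitor, read 5.32, 4.83 and 4.62 untreated and 5.98, 6.15 and 6.34 treated (log2 fold change 1.23, SE 0.31, adjusted p = 0.0193), a call that was lost without dexamethasone replicate 3. Mt1 and Serpina3n are shown because they are genes that rose and hold the same palindrome as Trim63 within 250 bases of their start.
Mt1: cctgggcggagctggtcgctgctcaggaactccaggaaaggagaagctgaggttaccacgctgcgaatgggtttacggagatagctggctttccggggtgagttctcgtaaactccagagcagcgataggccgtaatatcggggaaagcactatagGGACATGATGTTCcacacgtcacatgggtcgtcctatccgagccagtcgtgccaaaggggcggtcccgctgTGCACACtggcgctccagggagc
Serpina3n: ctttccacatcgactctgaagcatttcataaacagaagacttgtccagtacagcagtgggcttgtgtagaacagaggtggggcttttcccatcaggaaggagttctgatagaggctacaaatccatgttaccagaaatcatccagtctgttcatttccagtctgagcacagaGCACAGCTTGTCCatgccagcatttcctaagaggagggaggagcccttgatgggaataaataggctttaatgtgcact
The Mt1 window is chr8:94178839-94179088 and the Serpina3n window chr12:104406458-104406707, both on the plus strand of GRCm38.p6 from RefSeq. Capitals mark the palindrome GNACANNNTGTNC, at -94 in Mt1 and -78 in Serpina3n, and in Mt1 also TGCACNC, the core of the metal response element, at -23. The palindrome was found in 3 of 430 promoter windows of genes that rose (0.698%), in 2 of 301 of genes that fell (0.664%) and in 0.3% of the windows of all tested genes. Metal response element cores, TGCACNC or TGCGCNC on either strand, were common, in 29.5% of windows of genes that rose and 28.7% of those tested, and Mt2 has 3 of them, at -223, -128 and -50.

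The ubiquitin-proteasome system was higher in part. Of 26 listed muscle ubiquitin ligases and partners 21 were measured, 6 rose and 0 fell, with a median log2 fold change of 0.36. Fbxo32, the ubiquitin ligase atrogin-1, rose 3.51-fold, from 8.65, 8.69 and 8.45 to 10.24, 10.30 and 10.67 (SE of the log2 change 0.23, adjusted p = 1.91e-05). Hectd2, a ligase of the HECT class, rose from 5.76, 5.76 and 5.26 to 8.06, 8.29 and 7.41 (log2 fold change 2.32, adjusted p = 7.1e-07), a change that none of its 3 other kept probes passed with. Asb12, a substrate adaptor of cullin ligases expressed in muscle, rose 2.1-fold, from 8.17, 8.22 and 8.09 to 9.24, 9.14 and 9.32 (adjusted p = 0.000498). Fbxo31 rose 1.62-fold, Asb2, an adaptor that targets filamin, 1.59-fold and Trim54, which encodes the close MuRF1 relative MuRF3, 1.49-fold (adjusted p = 0.00991, 0.00794 and 0.0311). Asb2 and Trim54 did not pass without dexamethasone replicate 3.

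Proteasome genes rose more often than they fell. Of 41 measured subunits and assembly factors 8 rose, 1 fell and 32 did not pass, with a median of 0.28. Psmd8, a lid subunit, rose 2.87-fold, from 11.45, 11.29 and 11.04 to 12.54, 12.82 and 12.99 (adjusted p = 7.51e-07). Psmd4, a ubiquitin receptor of the regulatory particle, rose from 12.06, 11.93 and 11.53 to 12.52, 12.56 and 13.03 (log2 fold change 0.86, adjusted p = 0.000984). Both had groups that did not overlap. Psma7, an alpha ring subunit, rose by 0.71, and Psmd2 and Psmd14, the latter the deubiquitinase of the lid, by 0.77 and 0.66, calls that were lost without dexamethasone replicate 3. Psme1, a subunit of the interferon-inducible activator PA28, fell from 9.67, 9.58 and 9.68 to 8.96, 8.63 and 8.71 (log2 fold change -0.87, adjusted p = 0.00208). In all, 4 subunits rose and 1 fell without that array.

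Autophagy, ubiquitin-conjugating enzymes and deubiquitinases moved little. Of 36 measured autophagy and lysosome genes 2 rose, with a list median of 0.10. Map1lc3a, which encodes a form of the autophagosome protein LC3, rose 2.03-fold, from 11.42, 11.65 and 11.12 to 12.11, 12.51 and 12.63 (adjusted p = 0.000491). The cargo receptor Sqstm1 rose by 0.57 (adjusted p = 0.0234), but not without dexamethasone replicate 3 (adjusted p = 0.113), which leaves 1 of the 36. Of 43 ubiquitin-conjugating enzymes and deubiquitinases 2 rose, Usp13 by 0.69 and Ube2j2 by 0.60, and without dexamethasone replicate 3 neither passed and the list had 0 higher and 1 lower. Their list median of 0.02 lay next to that of all features.

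Heat shock proteins and chaperones rose in 10 of 39 measured members and fell in 0, with a median log2 fold change of 0.22. Hspa1l, a member of the HSP70 family, rose 2.27-fold, from 8.15, 7.95 and 7.81 to 9.03, 9.01 and 9.41 (adjusted p = 3.39e-05). Hsph1, the nucleotide exchange factor HSP110, rose from 8.97, 9.03 and 9.16 to 9.76, 9.90 and 10.36 (log2 fold change 0.95, adjusted p = 0.00142). The small heat shock proteins Hspb1 and Hspb7 rose by 0.81 and 1.04 (adjusted p = 0.00096 and 0.00702). The Hspb7 probe read far lower in knockout than in wild type. Its 3-day mean log2 signals were 5.93 untreated and 6.97 treated in knockout, against 9.76 and 10.74 in wild type. The reason was not tested. Hspb1 read 11.90, 11.83 and 11.84 untreated and 12.28, 12.81 and 12.92 treated, so its groups did not overlap and its treated arrays were the more spread. The count was 5 of 39 without dexamethasone replicate 3, which was the highest treated array for Hspa1l, Hsph1, Hspb1, Dnajb4 and Ptges3. The upstream window of Hspb1 is shown for the 2 copies of GAANNTTC, the core of the heat shock element, marked in capitals.
Hspb1: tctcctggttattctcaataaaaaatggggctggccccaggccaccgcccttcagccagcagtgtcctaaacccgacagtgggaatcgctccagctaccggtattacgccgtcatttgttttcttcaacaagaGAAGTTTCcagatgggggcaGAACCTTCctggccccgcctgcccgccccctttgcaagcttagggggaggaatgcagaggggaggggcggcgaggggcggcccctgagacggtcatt
This is chr5:135887669-135887918, plus strand, with the copies at -117 and -97. The motif, which reads the same on both strands, is in 6.69% of all windows, 5.81% of those of genes that rose and 5.65% of those of genes that fell.

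A minority of the genes of translation and ribosome assembly rose, and the largest rise among them was that of a translational repressor. Of 45 initiation and elongation factors and their regulators 5 rose and 0 fell, with a median of 0.28. All 3 treated arrays lay above all untreated arrays for 19 of the 45, and for 10.9% of all features. The count was 3 of 45 without dexamethasone replicate 3. Eif4ebp1, which encodes 4E-BP1, the mTOR-controlled repressor of cap-dependent initiation, rose 4.43-fold, from 9.94, 9.94 and 9.63 to 11.70, 11.92 and 12.33 (adjusted p = 2.35e-08). Eif5, the GTPase activator of the initiation complex, rose from 8.51, 8.54 and 7.96 to 9.22, 9.11 and 9.56 (log2 fold change 0.96, adjusted p = 0.000657). Eif6, which keeps ribosomal subunits apart, rose by 0.62 (adjusted p = 0.00364). The groups of these 3 genes did not overlap.

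Nucleolar and ribosome assembly factors rose in 6 of 44 measured members and fell in 0, with a median of 0.31. Rrp12, a factor of ribosomal subunit export, rose 1.93-fold, from 9.002, 8.903 and 8.951 to 9.85, 9.76 and 10.11 (adjusted p = 0.000157). Gtpbp4, a GTPase of the large subunit pathway, rose from 8.91, 9.01 and 8.53 to 9.42, 9.65 and 9.89 (log2 fold change 0.83, adjusted p = 0.0016). Both had treated arrays above all untreated ones. Bop1, Nop2, Gnl3 and Utp4, which take part in ribosomal RNA maturation or nucleolar maintenance, rose by 0.67, 0.63, 0.62 and 0.57. None of these 4 passed without dexamethasone replicate 3. Another kept probe of Gnl3, detected on all 3 arrays of each group, had a log2 change of -0.02 (limma adjusted p = 0.975). Without dexamethasone replicate 3 the knockout count was 2 of 44. In wild-type muscle at 3 days 0 of the 44 passed, with a median of 0.08. The test of the difference between genotypes called 0 of all features, and for the list as such it was not run.

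Fuel metabolism lists had a minority of members called, or none, where 5.37% of all features were called. Of 67 measured genes of oxidative phosphorylation 0 passed, with a median of 0.00. Cox6a2, a muscle form of a cytochrome oxidase subunit, read 14.78, 14.74 and 14.66 untreated and 14.91, 14.82 and 15.13 treated (log2 difference 0.22, adjusted p = 0.39). Ppp1r3c, which targets protein phosphatase 1 to glycogen, rose 3.26-fold, from 12.41, 12.62 and 12.56 to 13.77, 14.19 and 14.74 (adjusted p = 0.000127). Pnpla2, the first lipase of triglyceride breakdown, rose 2.39-fold, from 10.79, 10.88 and 10.53 to 11.85, 11.95 and 12.19 (adjusted p = 7.72e-05), with neither of its 2 other kept probes past the threshold. For both genes every treated array was above every untreated one. Gpd2, the mitochondrial glycerol phosphate dehydrogenase, fell from 9.44, 9.74 and 9.41 to 8.58, 8.39 and 8.49 (log2 fold change -1.04, adjusted p = 4.44e-05). Of 48 fatty acid genes 4 rose and 2 fell (3 and 1 without dexamethasone replicate 3), of 22 glycolysis genes 1 rose and 1 fell, and of 19 glycogen genes 2 rose and 1 fell.

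Carriers and amino acid enzymes moved in both directions. Of 35 measured solute carriers 6 rose and 2 fell, or 5 and 2 without dexamethasone replicate 3. The sodium-coupled amino acid carriers Slc38a2, Slc38a3 and Slc38a4 rose by 0.92, 0.97 and 1.22 on the log2 scale (adjusted p = 0.000564, 0.00582 and 0.00157). The zinc carrier Slc30a2 rose from 5.28, 5.40 and 4.87 to 6.54, 7.05 and 7.30 (log2 fold change 1.78, adjusted p = 5.5e-05), while Slc30a1, the zinc exporter of the cell surface, fell from 7.66, 7.82 and 8.34 to 7.23, 7.23 and 6.58 (log2 fold change -0.92, adjusted p = 0.00547). Both genes' groups were apart, and dexamethasone replicate 3 held the extreme treated value in each. In 3-day wild type Slc30a2 had a log2 change of 0.50 and did not pass (limma adjusted p = 0.394). Its difference between genotypes was 1.28 (limma adjusted p = 0.996, and 0.0404 with array weights). Slc30a2 is a neighbour of Trim63, with reference windows that start at chr4:134343216 and chr4:134314870. An effect of the targeted locus on it was not tested. Gamt, the methyltransferase that makes creatine, fell 4.35-fold, from 8.07, 8.43 and 8.30 to 6.14, 6.22 and 6.08 (SE of the log2 change 0.17, adjusted p = 1.15e-08). Prodh, the first enzyme of proline breakdown, rose by 1.21 (adjusted p = 0.00119), and in all 3 of 37 amino acid, creatine and polyamine genes rose and 2 fell. Without dexamethasone replicate 3 the list had 1 higher and 2 lower, as Psat1 and Cbs did not pass (adjusted p = 0.0919 and 0.103). Among 33 genes of metallothionein, glutathione and redox metabolism 6 rose and 2 fell, or 4 and 2 without that array: the plasma peroxidase Gpx3 rose by 0.98 and sulfiredoxin, Srxn1, by 0.85, and the glutathione transferase Gsta4 fell by 1.21 on the log2 scale.

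Clock genes had the largest called share of any programme list, 9 of 17 measured, with 3 higher and 6 lower and the same 3 and 6 counted without dexamethasone replicate 3. Arntl, which encodes the positive clock factor BMAL1, rose 3.34-fold, from 4.87, 4.42 and 5.25 to 6.30, 6.38 and 7.07 (adjusted p = 0.000722). Dbp, an output factor that BMAL1 and CLOCK activate, fell 8.32-fold, from 11.70, 11.73 and 11.18 to 8.400, 8.605 and 8.432 (adjusted p = 4.13e-07). The repressors Per2 and Per3 fell by 1.38 and 1.18 on the log2 scale (adjusted p = 0.0404 and 0.00504), and Csnk1d, a kinase that marks PER proteins, rose by 1.10 (adjusted p = 1.41e-05). Ciart, a repressor of the CLOCK complex, fell from 5.99, 6.36 and 6.07 to 4.606, 5.255 and 4.597 (log2 fold change -1.32, adjusted p = 9.58e-05). The sources used here do not give the hour of day at which muscles were taken, so drug and sampling time cannot be told apart for these genes. Ciart is shown because its window holds 3 copies of the E-box CACGTG, the letters that BMAL1 and CLOCK bind, in capitals.
Ciart: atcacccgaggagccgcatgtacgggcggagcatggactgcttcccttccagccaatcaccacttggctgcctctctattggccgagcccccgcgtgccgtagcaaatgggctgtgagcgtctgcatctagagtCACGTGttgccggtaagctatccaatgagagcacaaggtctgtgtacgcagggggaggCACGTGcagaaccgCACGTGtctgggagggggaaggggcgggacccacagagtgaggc
The window is chr3:95882229-95882478 on the minus strand, and the copies start at -116, -58 and -44. At least 1 E-box, a palindrome, is present in 6.02% of all windows and in 8.05% of those of tested genes. The window of Per3 has 2 copies of the D-box TTATGNAA, the letters that DBP binds, at -205 and -158, and that of Dbp has no E-box.

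The deepest fall of any named gene was in a contractile protein. Actc1, cardiac alpha-actin, which is expressed in developing and regenerating muscle, fell 11.1-fold, from 11.87, 11.45 and 12.07 to 8.02, 8.27 and 8.66 (log2 fold change -3.48, SE 0.24, adjusted p = 2.49e-09). The treated arrays lay more than 2 units below every untreated one. The window upstream of Actc1 is shown with its CArG box, the site of serum response factor on actin genes, in capitals.
Actc1: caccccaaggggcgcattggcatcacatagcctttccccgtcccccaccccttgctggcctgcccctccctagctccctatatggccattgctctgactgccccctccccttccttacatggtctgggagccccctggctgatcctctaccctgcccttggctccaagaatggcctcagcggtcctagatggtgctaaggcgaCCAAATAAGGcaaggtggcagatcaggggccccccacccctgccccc
It lies at chr2:114052876-114053125 on the minus strand, with the box at -47. A CArG box occurs in 1.47% of all windows, 1.4% of those of genes that rose and 2.66% of those of genes that fell.

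Other contractile genes were mixed. Of 14 slow fibre genes 1 rose and 1 fell, and of 19 fast fibre genes 2 fell. The slow fibre list had 0 higher and 1 lower without dexamethasone replicate 3. Z-disc, titin and sarcomere assembly genes rose in 7 and fell in 5 of 38, with a median of 0.24, and without that array 4 were higher and 4 lower, with a median of 0.15. Pdlim5, a PDZ and LIM adaptor of the Z-disc, rose 3.26-fold, from 7.11, 7.09 and 6.65 to 8.37, 8.67 and 8.91 (adjusted p = 1.4e-05). Another kept probe of Pdlim5, detected on all 3 arrays of each group, had a log2 change of -0.10 (limma adjusted p = 0.833). Ankrd1, the stretch-responsive titin partner CARP, rose from 6.04, 5.69 and 5.81 to 7.13, 7.01 and 7.52 (log2 fold change 1.37, adjusted p = 0.000276). For both genes the treated arrays lay above all untreated ones. Mybph, myosin-binding protein H, fell 3.35-fold, from 10.97, 11.32 and 11.34 to 9.31, 9.47 and 9.62 (adjusted p = 4.63e-06). Ky, a peptidase linked to the Z-disc, read 12.46, 12.36 and 12.74 untreated and 11.19, 10.46 and 8.48 treated (log2 fold change -2.48, adjusted p = 0.000547). Dexamethasone replicate 3 lay well below the other treated arrays for Ky, and without it the gene fell by 1.70 on the log2 scale.

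Calcium handling and neuromuscular junction genes fell more often than they rose. Genes of the fibre membrane had calls in both directions, where 5.37% of all features were called. Of 32 measured genes of calcium handling 5 fell and 2 rose, and without dexamethasone replicate 3 it was 3 and 1. Casq1, the calcium store of fast fibres, fell 2.37-fold, from 13.09, 13.18 and 12.68 to 11.54, 11.61 and 12.07 (adjusted p = 6.69e-05), and Sypl2, mitsugumin 29 of the triad, fell from 11.91, 12.25 and 11.93 to 11.02, 11.22 and 11.34 (log2 fold change -0.84, adjusted p = 0.000625). Neither overlapped between groups. Jph2, a junctophilin, had treated values of 10.53, 10.35 and 8.27 against 10.87, 10.84 and 11.41 untreated, and its call (adjusted p = 0.0411) was lost without dexamethasone replicate 3. Prkag3, the AMP-activated kinase subunit of fast glycolytic fibres, fell from 9.29, 8.90 and 9.34 to 7.73, 7.34 and 5.66 (log2 fold change -2.26, adjusted p = 0.000193), and without that array it fell by 1.64. Of 17 ion channels and pumps 1 rose and 1 fell, or 0 and 1 without dexamethasone replicate 3, and the 1 that fell, the sodium pump subunit Atp1b2, went from 9.84, 10.18 and 10.02 to 9.20, 9.15 and 9.17 (adjusted p = 0.00162). Among 18 dystrophin complex genes 2 rose and 1 fell, the water channel Aqp4, by 0.96 on the log2 scale. Both that rose, Dtna and Dtnb, were lost without dexamethasone replicate 3 (adjusted p = 0.0522 and 0.169). Of 17 neuromuscular junction genes 0 rose and 3 fell, among them Ache, acetylcholinesterase, which was detected on no treated array and fell at least 1.49-fold (adjusted p = 0.0249, and 0.109 without dexamethasone replicate 3).

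The list of myogenic and satellite cell genes rose in 5 of 21 measured members and fell in 0, with the receptor gene Tnfrsf12a among the 5. Myf6, the myogenic factor MRF4 of mature fibres, rose 1.9-fold, from 9.81, 9.96 and 9.88 to 10.67, 10.75 and 11.01 (adjusted p = 0.000173). Vgll2, a TEAD cofactor of muscle, rose 2.39-fold, from 9.92, 9.83 and 10.16 to 11.08, 11.09 and 11.52 (adjusted p = 1.57e-05). The treated arrays of both were above all untreated ones. Cdh15, M-cadherin, and Sdc4, syndecan 4, both also satellite cell markers, rose by 0.77 and 0.62, and Sdc4 did not pass without dexamethasone replicate 3 (adjusted p = 0.0981). That leaves 4 of the 21 myogenic genes and 1 in place of 2 of the 5 measured satellite cell markers. The satellite cell factors Pax7, Myf5 and Myod1 were on the array but did not pass the detection filter.

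Growth signalling lists had a minority of members called, in both directions, where 5.37% of all features were called. Of 31 insulin, IGF and mTOR genes 1 rose and 2 fell, and of 29 myostatin, activin and BMP genes 1 rose and 2 fell. These counts were 2 and 2, and 0 and 2, without dexamethasone replicate 3. Igfbp5, a binding protein that holds IGF in the matrix, fell from 12.48, 12.14 and 13.15 to 10.94, 10.56 and 9.16 (log2 fold change -2.37, adjusted p = 7.02e-05), and by 1.84 without dexamethasone replicate 3. Deptor, an inhibitor of mTOR, fell 1.84-fold, from 9.091, 9.202 and 9.003 to 8.18, 8.06 and 8.42 (adjusted p = 0.00102). Another kept probe of Deptor, detected on all 3 arrays of each group, had a log2 change of -0.09 (limma adjusted p = 0.823). Fstl1, a follistatin-like secreted protein, fell by 1.04 on the log2 scale (adjusted p = 0.00139), and Smad4, the shared SMAD, rose by 0.52 (adjusted p = 0.00898), a call lost without dexamethasone replicate 3 (adjusted p = 0.0866). Of 32 genes of growth arrest and proliferation 2 rose, Cdkn1a and Rgcc, and 1 fell, the cyclin Ccnd1, from 6.92, 6.72 and 7.56 to 5.95, 5.78 and 6.41 (adjusted p = 0.0077). Without that array 2 of the 32 rose and 2 fell. Ccnd1 and Deptor had groups that did not overlap.

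Genes of the extracellular matrix fell more often than they rose. Of 26 measured collagen chains 9 fell and 0 rose, with a median log2 fold change of -0.35, and the same number, 9, fell without dexamethasone replicate 3. Col1a1, the main chain of type I collagen, fell 8.38-fold, from 9.75, 9.84 and 10.34 to 7.29, 6.64 and 6.79 (SE of the log2 change 0.27, adjusted p = 5.75e-08). Its partner Col1a2 went from 6.50, 6.11 and 6.47 to signals below detection on all treated arrays, at least 2.92-fold lower (adjusted p = 1.55e-05). Col6a1, of the microfibrillar collagen around fibres, fell 2.44-fold (adjusted p = 0.000138), Col3a1 2.47-fold (adjusted p = 0.011) and Col15a1, of the basement membrane zone, 2.04-fold (adjusted p = 0.00447). Col4a1 and Col4a2, the network collagens of the basement membrane, had log2 differences of -0.08 and 0.15 (adjusted p = 0.857 and 0.666).

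Other matrix genes followed in smaller numbers. Fn1, fibronectin, fell from 7.27, 7.26 and 7.24 to 5.95, 5.99 and 6.01 (log2 fold change -1.28, adjusted p = 0.000327), and Smoc2, a matricellular calcium-binding protein, from 10.14, 10.23 and 10.01 to 9.08, 9.09 and 9.15 (log2 fold change -1.02, adjusted p = 7.79e-06). Both had treated arrays that were close to each other and below all untreated ones. Of 34 basement membrane, elastic and matricellular genes 4 fell and 1 rose, of 24 collagen processing genes 3 fell, Pcolce, Ppib and Bmp1, and of 27 matrix proteases and inhibitors 3 fell and 1 rose. Without dexamethasone replicate 3 the first of these lists had 3 lower and 0 higher and the last 3 lower and 0 higher. The other kept probes of Bmp1 did not pass, with log2 changes of -0.05, 0.08 and -0.17 (limma adjusted p = 0.901, 0.869 and 0.717). Mmp2, the gelatinase, and its inhibitor Timp2 fell by 0.96 and 0.62 on the log2 scale, and Serpinf1, an antiangiogenic serpin, by 1.27.

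Some markers of the cells that make this matrix fell as well. Of 18 fibroblast markers 8 fell, 4 of them collagen chains, with a summed linear signal of 11500 to 14400 on the untreated arrays and 9510 to 10400 on the treated ones. Dcn alone made up 48.8% to 63.8% of this sum on the 6 arrays. The other markers summed to 5880 to 6320 untreated and 3540 to 3830 treated. Lum, the collagen-binding proteoglycan lumican, fell from 7.64, 7.30 and 7.41 to 6.11, 5.81 and 5.79 (log2 fold change -1.55, adjusted p = 9.33e-06). Of 13 tendon markers 5 fell, and the sum of the 13 went from 3560 to 4560 untreated to 2170 to 2800 treated. Prelp made up 24.9% to 49.7% of that sum. The other tendon markers summed to 2540 to 3430 untreated and 1090 to 1480 treated. Cilp2, a cartilage and tendon matrix protein, fell from 8.58, 8.25 and 8.90 to 6.70, 6.06 and 5.55 (adjusted p = 3.77e-05), Kera, keratocan, 3.9-fold (adjusted p = 0.000569) and Tnmd, tenomodulin, 2.79-fold (adjusted p = 0.00821). In whole muscle, fewer cells of a type and less RNA per cell cannot be told apart. The share of tendon and connective tissue in each sample was not tested, either for these markers or for the collagen falls described above. Nrep, Ecrg4 and Rsph1, which are in none of the lists, fell 7.34-fold, 6.72-fold and 5.9-fold (adjusted p = 1.02e-09, 6.39e-06 and 3.86e-06).

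Antigen presentation and interferon genes fell in 8 of 32 measured members and rose in 0, with a median of -0.40. Cd74, the invariant chain of MHC class II, fell 2.46-fold, from 9.21, 9.39 and 8.87 to 7.96, 7.64 and 7.97 (adjusted p = 0.000559). The class II chain H2-Ab1 fell 2.67-fold, from 9.02, 9.22 and 8.57 to 7.54, 7.80 and 7.23 (adjusted p = 0.000393), and H2-Eb1 2.13-fold (adjusted p = 0.00834). These 3 did not overlap between groups and passed without dexamethasone replicate 3 as well. The class I gene H2-D1 and the antiviral membrane protein Ifitm3 were called (adjusted p = 0.0354 and 0.0464) but lost without it: H2-D1 read 9.40, 9.50 and 10.21 untreated and 9.20, 9.04 and 7.91 treated, with replicate 3 the extreme array of both groups. Without dexamethasone replicate 3 the list had 4 lower and 0 higher. Of 16 macrophage markers 3 fell, the mannose receptor Mrc1 by 0.78 and Laptm5 by 0.56 on the log2 scale and Mpeg1, detected on no treated array, at least 1.11-fold. The summed linear signal of the 16 was 1870 to 2210 untreated and 1430 to 1670 treated. Of 19 lymphocyte markers only 3 were measured, at 66.4 to 92.1 untreated and 67 to 100 treated, and their part in the class II values was not tested.

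Secreted immune factors moved singly: of 34 cytokine, chemokine and acute-phase genes 4 rose and 2 fell, or 3 and 2 without dexamethasone replicate 3. Cxcl13, a B cell chemokine, was not detected on untreated arrays and rose at least 2.95-fold, with treated values of 5.84, 6.14 and 6.93 (adjusted p = 5.35e-06). Il15, a cytokine made by muscle, fell from 8.05, 8.51 and 8.31 to 7.46, 6.80 and 7.08 (log2 fold change -1.17, adjusted p = 0.000301), and Ccl21a, a chemokine of lymphoid vessels, by 1.11 (adjusted p = 0.00951). Lcn2 is also the 1 neutrophil marker of 7 that rose, and the neutrophil marker S100a9 was undetected on all 6 arrays.

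Of 9 measured markers of red blood cells 4 fell, and they fell steeply. Hbb-bs, a beta-globin, read 13.98, 13.81 and 14.36 untreated and 11.97, 11.85 and 10.70 treated, 5.82-fold lower (adjusted p = 2.26e-06), and its neighbour Hbb-bt fell 6.34-fold (adjusted p = 7.51e-07). The beta-globin genes are near-identical, so their probes may read each other. Hba-a1, alpha-globin, fell 3.5-fold, from 13.62, 13.74 and 13.67 to 11.66, 11.72 and 12.22 (adjusted p = 3.21e-05), and Alas2, the haem synthesis enzyme of erythroid cells, fell 3.11-fold, from 6.94, 7.17 and 6.82 to 5.05, 5.28 and 5.69 (adjusted p = 0.000941). Every treated array lay below every untreated array for all 4. The summed linear signal of the 9 measured erythroid markers was 43200 to 57800 on the untreated arrays and 8480 to 11800 on the treated ones, while that of the muscle fibre markers was 348000 to 407000 and 379000 to 432000. The blood held in each muscle was not measured.

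Of the other resident cells, endothelial, Schwann cell and adipocyte markers had few or no members called, and smooth muscle and pericyte markers had more. Of 21 endothelial markers 1 fell, Aplnr, and 0 rose, and of 11 Schwann cell and myelin markers 0 passed. Smooth muscle and pericyte markers rose in 3 and fell in 1 of 13, or 2 and 1 without dexamethasone replicate 3: Acta2, smooth muscle actin, rose from 9.74, 9.45 and 9.71 to 10.36, 10.32 and 10.59 (adjusted p = 0.00528) and Smtn, smoothelin, fell from 9.70, 9.77 and 9.90 to 9.14, 8.81 and 8.88 (adjusted p = 0.000264). Of 11 adipocyte markers 1 fell, Car3, a carbonic anhydrase that muscle fibres express as well, from 14.02, 14.02 and 13.84 to 12.92, 12.82 and 12.98 (adjusted p = 1.67e-05). The summed adipocyte signal went from 15400 to 17600 down to 8530 to 9260, of which Car3 made up 84.9% to 95.7% on the 6 arrays. The other 10 markers, none of which passed, summed to 665 to 926 untreated and 1000 to 1290 treated, and the median log2 change of the list was 0.22.

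**Figure D4:**
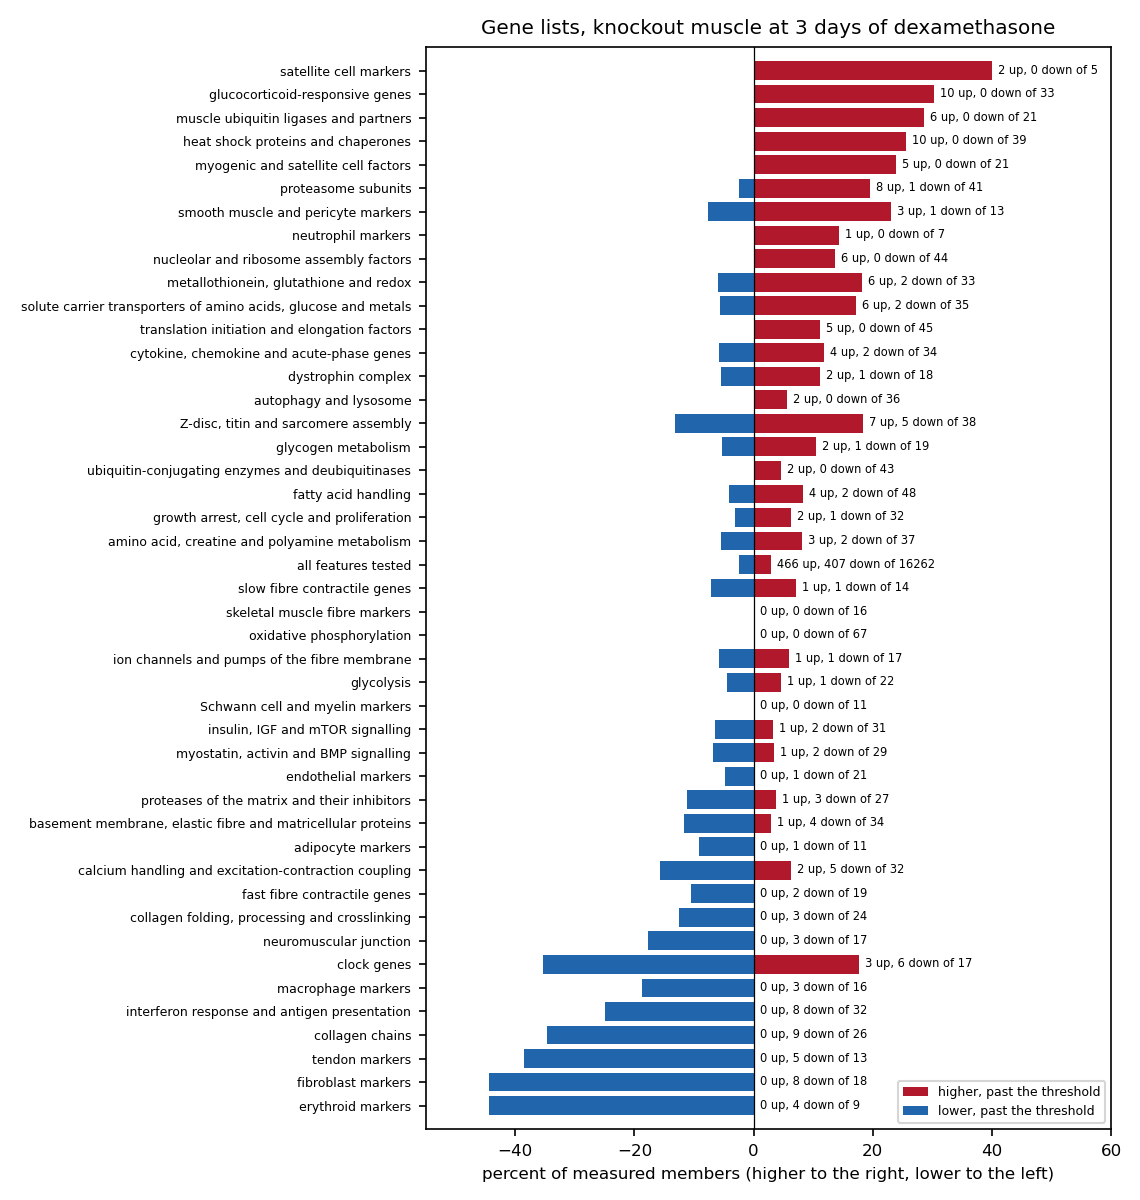
Each row is a gene list with at least 5 measured members or all 16262 features, with bars for the percent of measured members that were higher (red, to the right) or lower (blue, to the left) past the threshold in knockout muscle at 3 days, and the counts printed beside them. Glucocorticoid-responsive genes (10 up, 0 down of 33) lie near the top, collagen chains (0 up, 9 down of 26) near the bottom, and oxidative phosphorylation has no bar.

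Whether the loss of MuRF1 changes the early response was asked by setting these changes against those of wild-type muscle, which share no array with them. In wild type 630 features passed at 3 days (3.87%), 316 higher (1.94%) and 314 lower (1.93%). Both genotypes called 393 features in the same direction, 45% of the knockout calls and 62.4% of the wild-type calls, and 0 in opposite directions. Of the 873 knockout calls 96.6% had the same sign in wild type, against 64.8% of all features, and across these 873 features the log2 fold changes correlated at r = 0.921 (genes within one study, not independent replicates). Their median absolute log2 fold change was 0.78 in knockout and 0.59 in wild type. The features had been chosen by their knockout values.

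The test of the difference between genotypes called 0 features (limma, lowest adjusted p = 0.0931), with 699, or 4.3%, at an unadjusted p under 0.05. No gene's response to 3 days of dexamethasone was shown to differ by this test, which does not show that the responses are the same. The 2 genes nearest to it, named after their values were seen, were Rgcc and Numbl. Rgcc rose from 9.11, 9.12 and 9.03 to 10.24, 10.03 and 10.10 in wild type, so its treated knockout arrays at 11.18 to 11.88 all lay above the treated wild-type ones, and the difference of log2 fold changes was 1.29. Numbl, a Notch regulator, was detected on no untreated knockout array and rose at least 1.46-fold in knockout, while its mean log2 signals in wild type were 4.99 untreated and 4.53 treated. With array weights, 8 features passed this test, both of these among them, and without dexamethasone replicate 1 of the knockout Rgcc alone passed.

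The values of single members are set side by side here, and none of their differences passed. Tnfrsf12a rose by 3.36 in knockout and 2.44 in wild type, Eif4ebp1 by 2.15 and 1.47, Fkbp5 by 3.06 and 3.17, and Fbxo32 by 1.81 and 1.53 (log2 fold changes, adjusted p of the difference 0.996, 0.996, 0.998 and 0.996). Actc1 fell by 3.48 in knockout and by 4.64 in wild type. Collagen chains fell in 9 of 26 in knockout and in 8 of 26 in wild type, and glucocorticoid-responsive genes rose in 10 and 14 of 33. Heat shock proteins rose in 10 of 39 in knockout and 5 of 39 in wild type. For the lists as such the difference between the genotypes was not tested.

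Longer treatment was compared next. In the 14-day knockout arm, with its own untreated arrays, 532 features passed (3.27%), 180 higher (1.11%) and 352 lower (2.16%). Of the 3-day knockout calls, 226 passed in the same direction at 14 days, 25.9% of the 3-day and 42.5% of the 14-day calls, and 0 in opposite directions. Of the 873, 76.9% kept their sign, against 49.7% of all features, and their median absolute change was 0.29 at 14 days. These features had been chosen by their 3-day values, so this median does not measure whether the response faded. A set of 183 features was called in the same direction in 3-day knockout, 3-day wild-type and 14-day knockout muscle.

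A test of the difference between 14 and 3 days in knockout muscle called 21 features (0.129%), 11 higher (0.0676%) and 10 lower (0.0615%), with 2434, or 15%, at an unadjusted p under 0.05. Tnfrsf12a rose by 3.36 at 3 days and by 1.06 at 14 days (difference -2.30, adjusted p = 0.000102), with 14-day signals of 8.26, 8.03 and 8.38 untreated and 9.57, 9.25 and 9.03 treated. At 14 days its untreated arrays were higher and its treated arrays lower than at 3 days. Hbb-bs and Hbb-bt, which fell at 3 days, had log2 changes of 0.35 and 0.20 at 14 days (differences 2.90 and 2.87, adjusted p = 0.000917 for both), with 14-day Hbb-bs signals of 14.21, 13.79 and 14.19 untreated and 14.36, 14.52 and 14.39 treated. Hba-a1 differed by 1.95 in the same direction.

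The other named genes of this test moved early as well, with 1 exception. Eif4ebp1 rose by 2.15 at 3 days and 0.70 at 14 days, Rgcc by 2.33 and 1.10, and Klhl30 by 1.36 at 3 days, with 0.28 at 14 days. Mustn1, a small nuclear protein of muscle and bone, rose by 1.04 at 3 days and had -0.18 at 14 days, and Rrp12 rose by 0.95 and had -0.08. Without dexamethasone replicate 3 of the 3-day arm the difference between the times did not pass for Rgcc, Klhl30 and Rrp12 (adjusted p = 0.0691, 0.0593 and 0.109). Mybph fell by 1.74 at 3 days and had -0.12 at 14 days, and Ces1d, a carboxylesterase, had -1.19 and -0.20. Aqp4 fell by 0.96 at 3 days and had 0.41 at 14 days. Serf1 was the exception: its log2 change was -0.10 at 3 days, and it fell by 1.29 at 14 days. The count of this test depends strongly on the arrays: 5 to 368 features passed when single arrays were left out.

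**Figure D5:**
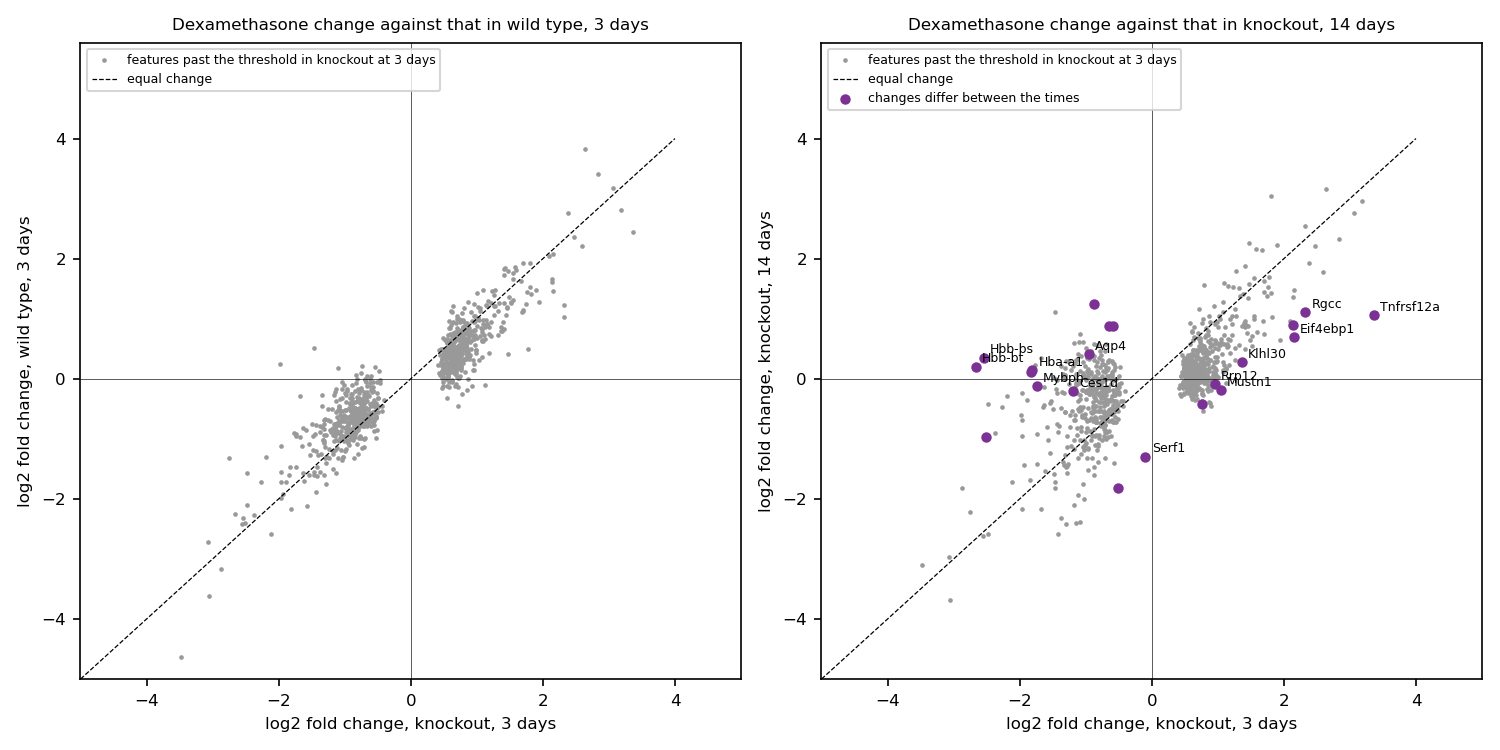
Each grey point is 1 of the 873 features called in knockout muscle at 3 days, with its log2 fold change there on the horizontal axis and, on the vertical axis, its log2 fold change in wild type at 3 days (left) or in knockout at 14 days (right); the dashed line marks equal change. At left 96.6% of points share a sign, and at right the 21 purple features are those whose change differed between the times, with Tnfrsf12a at 3.36 and 1.06.

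The programmes differed in what was still called at 14 days. Of 33 glucocorticoid-responsive genes 11 rose and 1 fell, collagen chains fell in 10 of 26 and antigen presentation genes in 9 of 32. Of 41 proteasome genes 0 rose and 1 fell, of 39 heat shock genes 1 rose and 1 fell, and of 44 nucleolar factors 0 passed. These are counts past a threshold in each arm, and for the lists as such the difference between the times was not tested. Psmd8 read a log2 change of 0.55 at 14 days and did not pass, against 1.52 at 3 days (difference test adjusted p = 0.0691), while Fbxo32 rose by 1.43 (difference test adjusted p = 0.596).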

How the data were processed

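The deposited non-normalized table gave, per the file headers, a signal intensity and a detection p-value for each of 46632 probes on each of 24 arrays, and all columns were matched to samples by name. A second deposited table holds the authors' processed intensity values and served only as an alternative. The submitters' processing notes name BeadStudio 3.2.3 without a role. The sources used here give no batch.

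Signals were background-corrected from the detection p-values, quantile-normalized and logged (log2) with an offset of 16 by neqc in limma 3.58.1 (R 4.3.3). Probes with a detection p under 0.05 on at least 3 of 24 arrays were kept, 20769 in all. Of all probes 29976 had 1 gene symbol, 10 several and 16646 none. Each gene was read by its kept probe of highest mean signal, giving 16262 features, 11010 of them named. A model with 8 group means over all 24 arrays (16 residual degrees of freedom, moderated standard errors) was fitted in limma. P-values were adjusted by Benjamini and Hochberg over all features, with a threshold of 0.05. A fold is a lower bound where a probe was detected on no array of the lower group. The number of arrays limits the precision.

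Gene lists and members were chosen with earlier results of these data known. Named genes were Trim63, the 15 per direction with the largest change among those past the threshold without overlap, 10 per direction in each difference test, and up to 6 called members per list, with clone names passed over and some genes left out for length. Of 164 named genes that were called, 61 had a second kept probe or more. Another probe passed in the same direction for 32 of the 61 and in the opposite one for 0. For the rest of the 61 no other kept probe passed, and the genes outside the 61 were read by a single kept probe. Promoter windows are from RefSeq (GRCm38.p6), found for 120 of the 164. Replicate numbers were not taken as pairs: deviations of same-numbered 3-day knockout arrays correlated at -0.3, -0.23 and -0.47, and at 0.42, 0.32 and -0.21 by the second table's numbers.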

Additional observations from a re-analysis of the deposited data

Results flagged for a closer look

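The dexamethasone change in knockout muscle differed between 14 and 3 days, by the test of that difference, for 13 named genes. The difference (14-day minus 3-day log2 fold change) was -2.30 for Tnfrsf12a, 2.90 for Hbb-bs, 2.87 for Hbb-bt and 1.95 for Hba-a1. It was -1.45 for Eif4ebp1, -1.22 for Mustn1, -1.22 for Rgcc, -1.20 for Serf1, -1.08 for Klhl30 and -1.04 for Rrp12. Mybph had 1.63, Aqp4 1.37 and Ces1d 0.99. Tnfrsf12a, Hbb-bs and Hbb-bt passed under all 25 alternatives run for this test, with an adjusted p of at most 0.00315, 0.0231 and 0.0231. The other 10 lost the call under 2 to 13 of the 25 alternatives.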

How the results depend on the processing

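The 873 calls in 3-day knockout muscle became 320 (109 higher, 211 lower) with median centring in place of quantile normalization, 196 (96 and 100) with the 6 arrays alone and 2107 (1045 and 1062) with array weights. Leaving out 1 array at a time gave 493 to 1332 calls, 230 to 662 higher and 263 to 670 lower, with the normalization and filter kept. The arrays that moved it by more than 1.5 times were untreated replicate 3 (493 calls without it) and treated replicates 1 (1332) and 3 (527). The difference between genotypes, 0 calls, had 2 with the authors' value table, 1 with no filter on dim probes, 8 with array weights and 0 to 1 with single arrays left out. The 1 call came without 3-day treated knockout replicate 1. The 21 calls between 14 and 3 days became 62 (47 lower) without background correction, 32 (21 lower) with the value table, 54 (40 lower) with an offset of 50, 33 (20 higher) with every probe tested singly, 1072 (496 higher, 576 lower) with array weights, and 3 (2 higher, 1 lower) with median centring or with the knockout arrays alone. With no filter 7 were higher. Single arrays left out gave 5 to 368 (2 to 223 higher, 3 to 145 lower). The count was 6 without 3-day untreated replicate 2, 5 without 3-day untreated replicate 3, 115 without 3-day treated replicate 1, 368 without 14-day untreated replicate 1, 8 without 14-day untreated replicate 2 or 3 and 9 without 14-day treated replicate 2 or 3. With the replicate number as a block the counts were 907, 0 and 23, and, with a block by the second table's numbers, added after the data were seen, 1161, 0 and 89 (53 higher, 36 lower). Among named genes called at 3 days the direction turned once: Cbs, near background, had 0 with the value table, where all its arrays lie at the floor. Of 3277 results of these genes under the alternatives 2891 kept their call and 385 lost it, the largest numbers with the 6 arrays alone (81) and median centring (71). Trim63 in untreated knockout against wild type kept its sign and call in the 18 alternatives run for it, 6 of which left out 1 array each, from -4.47 to -2.17 (-3.99 to -3.82 with 1 array left out). The cause of these shifts was not tested, beyond the fewer samples in some fits.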
